A study of Capra hircus with 3 samples.

Results

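The mitochondrial respiratory chain, the ATP synthase and the mitochondrial ribosome were measured in the skin of Arbas Cashmere goats kept under a short photoperiod or under natural conditions. Members were taken by the product description on the array: probes described as NADH dehydrogenase, succinate dehydrogenase, cytochrome b-c1, cytochrome c or its oxidase, ATP synthase, or a 39S or 28S ribosomal protein. This gave 25 of the 15008 probes. The study compared 6 female goats, 2 years old, of which 3 were kept under the short photoperiod and 3 under natural conditions. The goats of the short photoperiod grazed, fed and drank within fixed hours by day. They spent the rest of each day in a dark shed at about 0.1 lux and 1 degree colder than outside. The control goats grazed under natural conditions. Skin was cut from one side of the body, and its RNA was copied from an oligo-dT primer and amplified into labelled cRNA. The cRNA was hybridised to 3 Agilent sheep arrays, each holding 1 goat of each group. The study compared goats of the same parent, and these were taken here to be the goats that shared an array. Cy5 marked the goat of the short photoperiod and Cy3 its control on every array. The dye and the photoperiod therefore cannot be told apart in any ratio, mean, p-value or level given here. The shed's temperature, the fixed hours of feeding and drinking, and the photoperiod cannot be told apart either. The arrays of replicates 1, 2 and 3 had a median spot intensity of 4587, 6436 and 7120 in Cy5 and of 2688, 3668 and 3911 in Cy3. On each of them all 25 members stood well above background in Cy5 and in Cy3, and the number of arrays limits the precision.

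The respiratory chain lies in the inner mitochondrial membrane. Complex I takes electrons from NADH and complex II takes them from succinate, and both pass them by way of coenzyme Q to complex III, from which cytochrome c carries them to complex IV and to oxygen. Complexes I, III and IV pump protons, complex II does not, and complex V, the ATP synthase, uses the proton gradient to make ATP. Complex II is encoded by nuclear genes alone. The other complexes also hold subunits encoded by mitochondrial DNA, which the mitochondrial ribosome translates.

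By description the 25 probes fell into 7 for complex I, 2 for complex II, 0 for complex III, 3 for complex IV, 6 for complex V, 0 for the carrier cytochrome c and 3 for the mitochondrial ribosome. Of the other probes, 2 were described as assembly factors and 2 as subunits of the vacuolar ATPase, a proton pump of other membranes, and these 4 were left out of the medians of the complexes. Subunits under other descriptions were not searched for, and both probes found for complex II were of a single gene.

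Each probe is an oligonucleotide of 60 bases on the array. Of these sequences 4 are shown, all of probes described in the results below, and they are written 5′ to 3′ as deposited with the arrays.
SDHD (RefSeq probe): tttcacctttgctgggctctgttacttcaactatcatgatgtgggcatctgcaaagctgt
TC67364 (as ND5): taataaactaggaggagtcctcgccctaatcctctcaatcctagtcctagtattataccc
ND2: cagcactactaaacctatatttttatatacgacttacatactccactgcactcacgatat
NDUFA12: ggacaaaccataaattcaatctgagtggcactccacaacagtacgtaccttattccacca
The SDHD probes measured different stretches of the transcript, and the longest run of bases they shared was 5. The record TC67364 was described as a partial match, over 76%, to the sheep protein ND5, a complex I subunit encoded by mitochondrial DNA. Its probe starts at base 2826 of the record. As background, ND5 is followed on mammalian mitochondrial DNA by ND6 and by cytochrome b, the mitochondrially encoded subunit of complex III, and the bases of this probe read as cytochrome b rather than as ND5. That reading rests on general knowledge, was made after the values were seen and was not checked against a reference sequence here, so the probe is called TC67364 throughout and is counted under complex I only by its description.

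Another 4 records had descriptions taken from a distant species, and these descriptions covered little of the named protein. TC54680 was named after ND2 of a frog with a match of 5%, TC73171 after ND3 of a barnacle with 18%, TC58548 after COX1 of a fish with 4% and TC59587 after a rice protein for cytochrome c biogenesis with 6%. The last 30 bases of the TC54680 probe are shown beside those of COX6C, a nuclear gene of complex IV. Capitals mark AATAAA, a common polyadenylation signal of nuclear transcripts.
TC54680: acagtgtcatgtgcaaagaacAATAAAaat
COX6C: gtgagaaatagtctctcAATAAAtaaacaa
The letters AATAAA, searched on the strand of the probe, stood in 6 of the 25 member probes (24%) and in 5.64% of all tested probes. One of the 6 was the TC67364 probe, so a match alone does not mark a nuclear transcript. The longest run of bases shared by the ND2 and TC54680 probes was 6. Because their descriptions covered little of the named protein, the 4 records named after a distant species are given by their record names.

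No member passed an adjusted p of 0.05 (limma, Benjamini-Hochberg over 14977 probes), where 1 of all probes did (0.00668%). The lowest adjusted p of a member was 0.17, for TC67364. At an unadjusted p under 0.05, 5 members were higher under the short photoperiod, against 9.05% of all probes, and 2 were lower, against 9.41%. The count in both directions, 7, was 1 without replicate 2 and 18 under median centring. The share of all probes at that unadjusted threshold is not given for these settings, so neither count can be read as a trait of the members. At an adjusted p of 0.05 (limma), 8 members passed under median centring, against 12.6% of all probes. By the study's rule of a 2-fold mean change, 0 members were called, against 0.855% of all probes. In log2 ratios of short over natural photoperiod, 8 members lay above 0 on all 3 arrays, against 21.5% of all probes, and 3 lay below 0 on all 3, against 22.1%. Over the members the mean ratio ran from -0.53 to 0.66, with a median of 0.11 beside -0.0073 for all probes. Without replicate 3, 12 members lay above 0 and 13 below, with a median of -0.014, and without replicate 1 the median was 0.19. With all arrays 19 lay above 0 and 6 below, beside 7310 above and 7667 below among all tested probes. In the processed signals of the scanner software 16 members lay above 0 and 9 below, with a median of 0.066. The median of all probes was 0.0064 in those signals and -0.0034 without replicate 3.

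**Figure D1:**
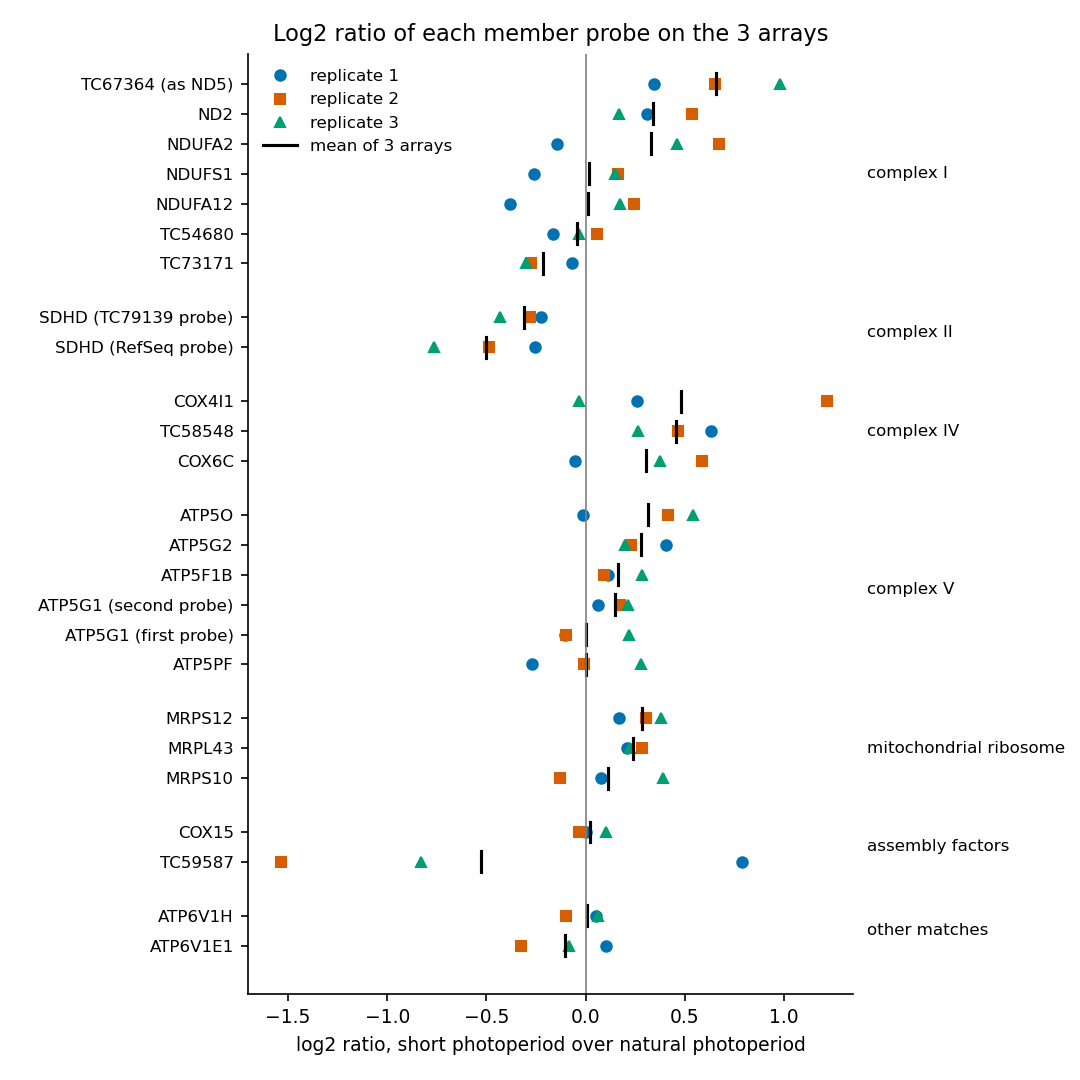
Log2 ratio of short over natural photoperiod (x axis) for each of the 25 member probes (rows, grouped by complex) on the arrays of replicates 1, 2 and 3, with the mean of the 3 arrays as a black bar. Both SDHD probes lie below 0 on every array after loess, although their means are just above 0 under median centring, and none of the means reaches 1 or -1.

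After loess, the members with the lowest mean ratios among the complexes were the probes of SDHD. SDHD is the small membrane anchor of succinate dehydrogenase, which holds complex II in the inner membrane. On the RefSeq probe the normalized log2 intensity was 14.98, 14.89 and 14.83 in the short photoperiod goats and 15.23, 15.37 and 15.59 in their controls. On the probe of the record TC79139 it was 14.47, 14.60 and 14.65 against 14.69, 14.88 and 15.08. On both probes every short photoperiod goat lay below every control goat. Among all members, the levels of the groups did not overlap in 3 members with the short photoperiod lower, against 7.21% of all probes, and in 3 with the short photoperiod higher, against 6.37%. The log2 ratios of the RefSeq probe were -0.25, -0.49 and -0.76, with a mean of -0.50 ± 0.25 (SD, n = 3 arrays), a 95% interval from -0.84 to -0.16 and a limma adjusted p of 0.19. Those of the TC79139 probe were -0.22, -0.28 and -0.43, with a mean of -0.31 ± 0.11 (SD, n = 3 arrays), an interval from -0.57 to -0.050 and a limma adjusted p of 0.23. Neither passed the test, and under median centring in place of loess the means of both lay above 0, at 0.070 and 0.10. With that setting TC73171 of complex I, at -0.065, and ATP5PF of complex V, at 0.067, lay below both SDHD probes. SDHA, SDHB and SDHC, the other subunits of complex II, were not among the members.

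**Figure D2:**
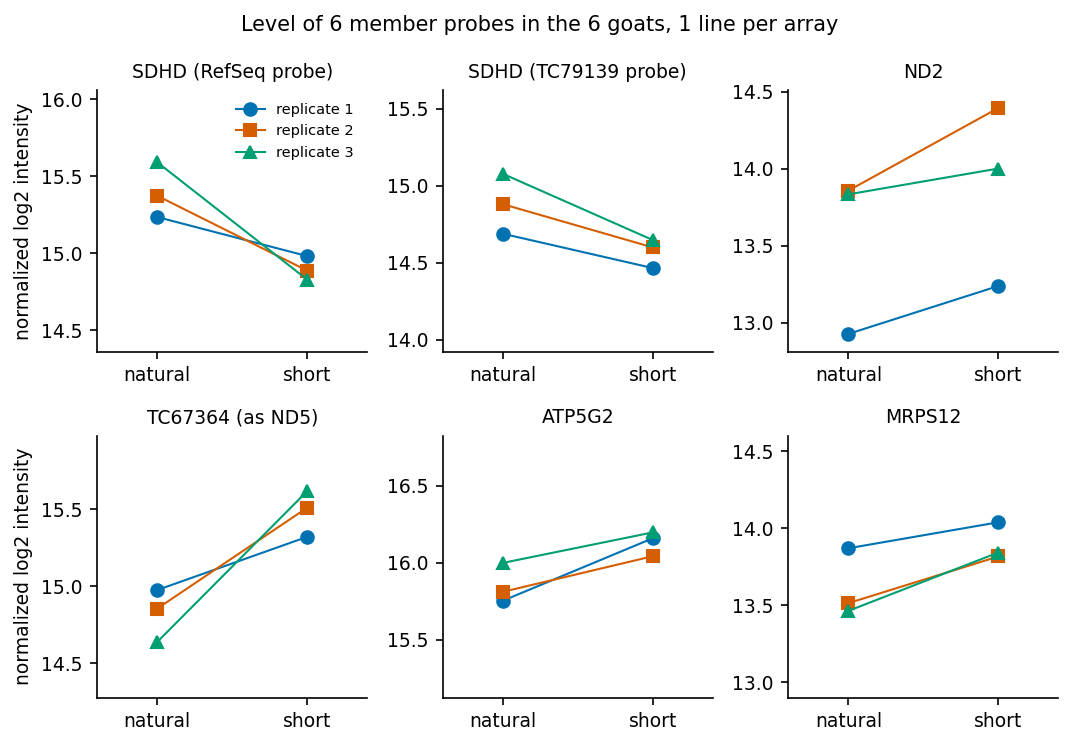
Normalized log2 intensity (y axis, each panel spanning the same range) of 6 member probes in the control goats (natural) and the short photoperiod goats (short), with a line for each array. After loess and Aquantile the lines of both SDHD probes run down on all 3 arrays and those of ND2, TC67364, ATP5G2 and MRPS12 run up, while the mean ratios of both SDHD probes turn above 0 under median centring.

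In complex I no member passed the test. NDUFS1, the large iron-sulphur subunit of the arm that oxidises NADH, had log2 ratios of -0.26, 0.16 and 0.15. NDUFA12, an accessory subunit, had -0.38, 0.25 and 0.17, and NDUFA2, another accessory subunit, had -0.14, 0.67 and 0.46. All 3 were below 0 on replicate 1 and above 0 on replicates 2 and 3, so that their means of 0.02, 0.01 and 0.33 were all within the spread between arrays (SD of 0.24, 0.34 and 0.42). Their limma adjusted p-values ran from 0.39 to 0.97.

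ND2, a membrane subunit of complex I encoded by mitochondrial DNA, had log2 ratios of 0.31, 0.54 and 0.17, with a mean of 0.34 ± 0.19 (SD, n = 3 arrays) and a limma adjusted p of 0.24. Its normalized log2 intensity was 13.24, 14.39 and 14.00 under the short photoperiod and 12.93, 13.86 and 13.83 in the controls. The groups overlapped, because both goats of replicate 1 were lower than the rest. TC67364 had levels of 15.32, 15.51 and 15.62 under the short photoperiod and 14.98, 14.85 and 14.64 in the controls, which did not overlap. Its log2 ratios were 0.35, 0.66 and 0.98, with a mean of 0.66 ± 0.32 (SD, n = 3 arrays), an interval from 0.27 to 1.05 and a limma adjusted p of 0.17. It had the highest mean ratio of all members and did not pass the test with loess. Under median centring it did, with a mean of 1.23 and a limma adjusted p of 0.034. The log2 ratios of ND2 and TC67364 lay above those of all 3 nuclear members on replicate 1 only, since NDUFA2 exceeded both on replicate 2 and exceeded ND2 on replicate 3. Of the records named after a distant species, TC73171 had -0.07, -0.28 and -0.30 (limma adjusted p 0.34), with levels of 13.68, 13.68 and 13.39 against 13.75, 13.96 and 13.69. Its groups did not overlap, by a margin far smaller than the spread within each group. TC54680 had -0.16, 0.06 and -0.03, and its mean of -0.045 changed sign with the processing.

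For complex III no probe was found by description. In complex IV, which passes electrons to oxygen, COX4I1 is a regulatory subunit of the nucleus and had log2 ratios of 0.26, 1.22 and -0.03. Its mean of 0.48 ± 0.65 (SD, n = 3 arrays) rested on replicate 2, where the control goat was low: its levels were 14.56, 14.51 and 14.07 under the short photoperiod and 14.30, 13.29 and 14.11 in the controls. Without replicate 2 the mean was 0.11. COX6C, a small nuclear subunit, had -0.05, 0.59 and 0.38, with a mean of 0.30 ± 0.33 (SD, n = 3 arrays) that was 0.16 without replicate 2 and 0.48 without replicate 1. TC58548 had 0.63, 0.47 and 0.27, with a mean of 0.45 ± 0.18 (SD, n = 3 arrays), and its levels of 13.26, 13.27 and 13.40 under the short photoperiod lay above those of 12.62, 12.80 and 13.14 in the controls. The limma adjusted p-values of the 3 probes ran from 0.19 to 0.38.

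The ATP synthase was covered by subunits of its catalytic head, its stalk and its membrane ring. ATP5G2 encodes subunit c, of which the proton-driven ring is built. Its levels were 16.16, 16.04 and 16.20 under the short photoperiod and 15.75, 15.81 and 16.00 in the controls, without overlap, and its log2 ratios were 0.41, 0.23 and 0.20, with a mean of 0.28 ± 0.11 (SD, n = 3 arrays) and a limma adjusted p of 0.25. ATP5G1, a second gene for subunit c, was measured by a pair of probes that gave different values. The first had log2 ratios of -0.11, -0.10 and 0.22, with a mean of 0.0047, and the second had 0.06, 0.17 and 0.21, with a mean of 0.15. ATP5F1B, the catalytic beta subunit, had 0.12, 0.09 and 0.28, with a mean of 0.16 ± 0.10 (SD, n = 3 arrays). That mean was -0.015 in the processed signals of the scanner software and 0.10 without replicate 3. ATP5O, of the stalk that holds the head in place, had -0.01, 0.42 and 0.54, and ATP5PF, the coupling factor of the same stalk, had -0.27, -0.01 and 0.28. On replicate 3 all 6 probes lay above 0, on replicate 1 only 3 did, and the limma adjusted p-values of the 6 ran from 0.25 to 0.999. Under median centring 4 of the 6 passed, namely ATP5G2, ATP5O and both ATP5G1 probes, with limma adjusted p-values from 0.030 to 0.037. With that setting 12.6% of all probes passed, and 44.1% of the brightest 10% of probes, among which these 4 lay.

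In the mitochondrial ribosome, MRPL43 of the large subunit had log2 ratios of 0.21, 0.29 and 0.22. Its SD of 0.042 was the smallest of all members. MRPS12 of the small subunit, which lies near the decoding site, had 0.17, 0.30 and 0.38, with levels of 14.04, 13.82 and 13.84 under the short photoperiod and 13.87, 13.52 and 13.46 in the controls. MRPS10 of the small subunit had 0.08, -0.13 and 0.39. The means were 0.24 ± 0.042, 0.28 ± 0.11 and 0.11 ± 0.26 (SD, n = 3 arrays), and the limma adjusted p-values were 0.28, 0.25 and 0.68. MRPL43 and MRPS12 thus lay above 0 on every array, with means larger than their SD, and did not pass the test. The limma test does not use that SD alone but draws it towards the spread of all probes.

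COX15, which makes the haem of complex IV, had log2 ratios of 0.00, -0.03 and 0.10, with a mean of 0.02 ± 0.070 (SD, n = 3 arrays). TC59587 had 0.79, -1.54 and -0.83, the widest spread of all members (SD 1.19), and without replicate 1 its mean was -1.18, past the 2-fold rule. Its mean was -0.020 without replicate 2 and -0.37 without replicate 3. The vacuolar ATPase subunits ATP6V1E1 and ATP6V1H had means of -0.10 ± 0.22 and 0.0070 ± 0.090 (SD, n = 3 arrays). Under median centring ATP6V1E1 turned to 0.63 with a limma adjusted p of 0.036. After loess it was -0.21 without replicate 1 and 0.0094 without replicate 2.

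With each complex taken by description, the median ratio of complex II, which stands for the gene SDHD, was the lowest on every array. The median log2 ratio of complex I was -0.14, 0.25 and 0.17 on replicates 1, 2 and 3, that of complex II was -0.24, -0.38 and -0.60, and that of complex IV was 0.26, 0.59 and 0.27. For complex V it was 0.025, 0.13 and 0.25, and for the mitochondrial ribosome it was 0.17, 0.29 and 0.38. The median of all probes was -0.00064, -0.0031 and -0.0061, as loess sets it near 0. The difference of complex II from complex IV was -0.50, -0.97 and -0.86, with a mean of -0.78 ± 0.25 (SD, n = 3 arrays), and that from the ribosome was -0.41, -0.67 and -0.98, with a mean of -0.68 ± 0.28. From complex V it was -0.26, -0.52 and -0.84, and complex I exceeded complex II by 0.10, 0.63 and 0.76. Of 10 pairs compared, 8 had the same sign on all arrays with loess and 5 with median centring, and 4 of the pairs in either count hold complex II. The exact two-sided sign-flip permutation test cannot give a p under 0.25 with 3 arrays. The difference of complex V from the ribosome was -0.14 ± 0.012 (SD, n = 3 arrays) with loess and turned to 0.30 ± 0.088 with median centring, and that of complex I from the ribosome turned from -0.19 to 0.065. Under median centring the median of complex II was 0.087 and so above 0, and on all 3 arrays the other complexes and the ribosome still exceeded it, by means of 0.39 for complex I, 0.68 for complex IV, 0.63 for complex V and 0.32 for the ribosome. The medians rest on few probes, and that of complex II on 1 gene. When the TC67364 probe was left out, the median of complex I was 0.070 ± 0.19 in place of 0.091 ± 0.21 (SD, n = 3 arrays), and without the records named after a distant species it was 0.19 ± 0.34. Without TC58548 the median of complex IV was 0.10, 0.90 and 0.17 on the 3 arrays. Over the 3 nuclear members of complex I the median was -0.26, 0.25 and 0.17, and so below complex II on replicate 1.

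**Figure D3:**
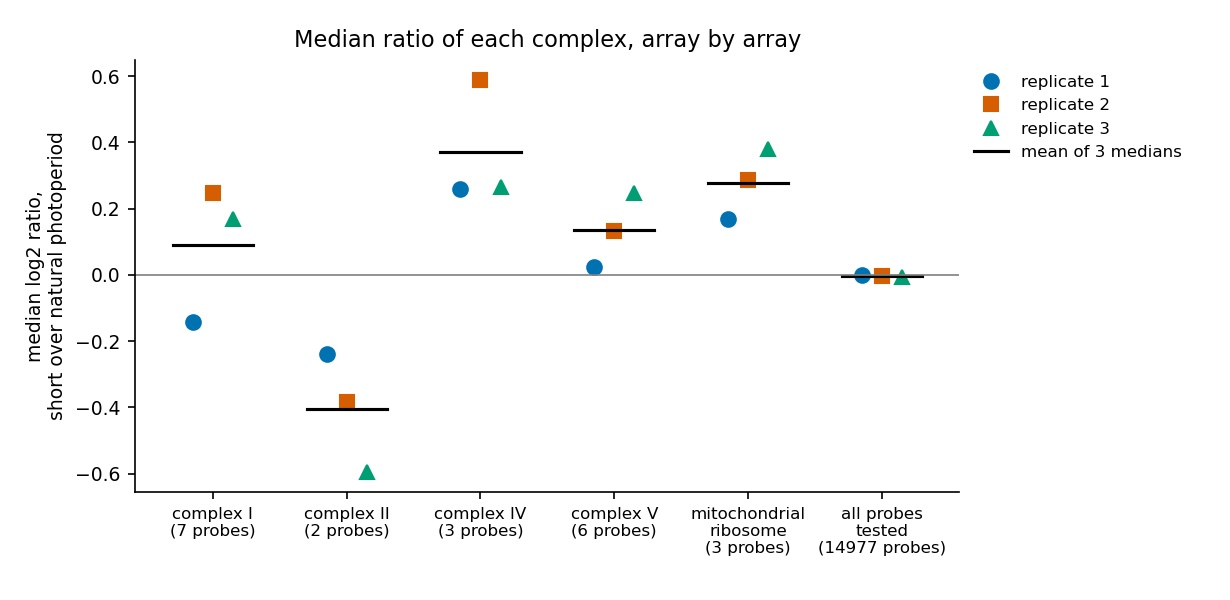
Median log2 ratio of short over natural photoperiod (y axis) of the probes of each complex and of all tested probes (x axis) on each array, after loess, with the mean of the 3 medians as a black bar. Complex II, which stands for the gene SDHD, lies below the others on each array, from -0.24 to -0.60, while under median centring its median is 0.087.

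The members were among the brightest probes of the arrays, where the normalizations differ most. Their median brightness, the mean log2 intensity of both channels, was 14.7, beside 12.2 for all probes, and 13 of the 25 lay among the brightest 10% of probes. Loess removes a trend of the ratio with brightness, and median centring keeps it: among the brightest 10% the median ratio of all probes was -0.027 with loess and 0.55 with median centring. With median centring 8 members passed an adjusted p of 0.05 (limma), against 1885 of all probes (12.6%). These were TC67364, TC58548, COX6C, ATP5G2, ATP5O, both ATP5G1 probes and ATP6V1E1, which is not a mitochondrial protein. Of the 13 members among the brightest 10%, 7 passed, against 44.1% of all probes of that brightness. Under this setting 22 of the 25 members lay above 0, their median was 0.52, and 3 were at least 2-fold higher, against 1.96% of all probes: TC67364, ATP5G2 with 1.19 and COX6C with 1.04.

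**Figure D4:**
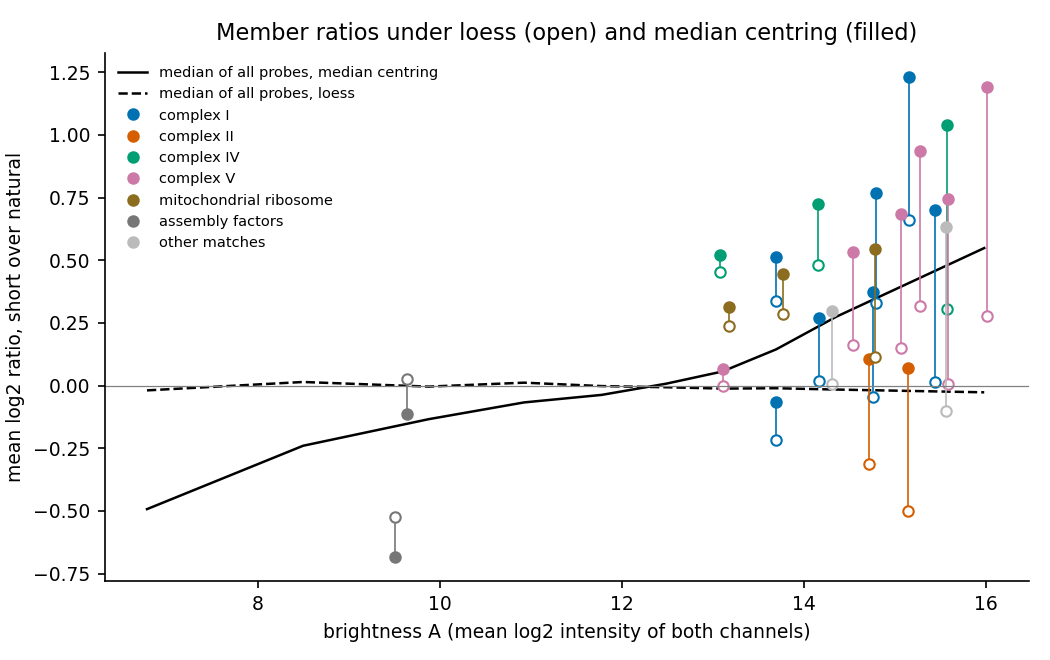
Mean log2 ratio of short over natural photoperiod (y axis) of each member against its brightness (x axis, mean log2 intensity of both channels), with loess (open circles) and with median centring (filled circles), coloured by complex, and the median of all probes in bins of brightness, each with 10% of the probes, as lines. The bright members shift up with the median of all probes, which is 0.55 in the brightest bin under median centring, and both SDHD probes cross from below to above 0.

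Genes around the chain were found by 16 probes. None passed an adjusted p of 0.05 (limma), 7 lay above 0 and 9 below, and their median mean ratio was -0.018. At an unadjusted p under 0.05, 0 were higher, against 9.05% of all probes, and 2 of the 16 were lower, against 9.41%. The lowest mean was that of a probe of UCP3, an uncoupling protein known from muscle, with log2 ratios of -0.12, -0.09 and -0.72 (limma adjusted p 0.37). The other UCP3 probe had -0.21, -0.21 and -0.43 (limma adjusted p 0.25) and was well above background in Cy5 on 2 of the 3 arrays. The highest mean was that of PPARGC1A, a coactivator that drives the formation of mitochondria, with 1.32, 0.28 and 0.03 and a mean of 0.54 ± 0.68 (SD, n = 3 arrays, limma adjusted p 0.35), with replicate 1 far above the others. The pair of probes described as the same coactivator under the name pgc1 had means of -0.13 and -0.012. The ADP/ATP carriers, which exchange ATP for ADP across the inner membrane, had different signs: SLC25A4 had -0.30, -0.34 and -0.18 (limma adjusted p 0.25) and SLC25A5 had 0.08, 0.01 and 0.53 (limma adjusted p 0.47). VDAC1, the channel of the outer membrane, had a mean of 0.0031 ± 0.26 (SD, n = 3 arrays).

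The skin was measured whole, and fewer cells of a type and less RNA per cell cannot be told apart. Among 38 marker probes of cell types that skin can hold, the lowest adjusted p was 0.16 (limma), so that no probe passed, and the lists were not tested as groups. All 4 probes of the hair follicle cortex keratins KRT34, KRT35 and KRT85 had a mean above 0. Their summed linear level was 191185, 187410 and 208343 under the short photoperiod and 122012, 121863 and 57072 in the controls, that is 1.57, 1.54 and 3.65 times as high. KRT14, the keratin of basal keratinocytes, was 2.36, 1.53 and 1.07 times as high and was the only probe found for its list. All 8 probes of the leukocyte markers CD3E, CD14, LYZ and FCER1G lay below 0, LYZ being the brightest. Their sum was 111498, 109622 and 93242 under the short photoperiod and 150988, 126377 and 147029 in the controls, or 0.738, 0.867 and 0.634 times as high. Of the fibroblast probes 8 of 10 lay below 0, with DCN the brightest and, over the 9 probes measured on all arrays, ratios of the sums of 0.753, 1.12 and 1.10, and of the adipocyte probes 4 of 6, with LPL the brightest and ratios of 0.579, 0.870 and 0.629. Skeletal muscle, a tissue rich in mitochondria, was found by 5 probes for 3 of its 10 markers. Their summed level ran from 1895 to 2577 under the short photoperiod and from 2090.8 to 2690 in the controls, with ratios of 0.958, 0.881 and 0.988. MYH7 was well above background on 0 arrays. Single genes stood for the smooth muscle, endothelium and red cell lists. CNN1 had ratios of 1.04, 1.05 and 0.598, VWF of 1.02, 0.752 and 0.833, and HBB of 1.16, 0.243 and 2.05. The part of these cell types in the values of the members was not tested.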

How the data were processed

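The deposited scanner files, made by the authors with Agilent Feature Extraction 10.7.3.1, give the mean spot intensity and the local background intensity in Cy5 and Cy3, not normalized, and also processed intensities. The deposited value table holds the authors' log2 ratios, which equal those of the processed signals to within 0.001 for 99.96% to 100% of the 14958 probes with 1 spot. Here the spot intensities were corrected with normexp (offset 50) and normalized by loess within arrays in limma 3.58.1 (R 4.3.3). Outlier-flagged spots were left out, spots of a probe averaged, and probes measured on at least 2 arrays tested against 0 with lmFit and eBayes, with Benjamini-Hochberg adjustment over 14977 probes. The levels per goat are the separate channels after Aquantile. The study's text states that each short photoperiod goat was compared to one of the same parent. These were taken here to be the goats that shared an array. Genes are named from the array's descriptions. No genome was used, so exons and untranslated regions were not assigned. The members, lists and tests were chosen with earlier results of these data known. Members described in full were those with the same sign on all arrays and the highest and lowest means of each complex, all of complex II, and those described as encoded by mitochondrial DNA. The remaining members are given for completeness. Marker product names and the emphasis on complex II were added after the values were seen. The fit was also run on simulated ratios with shifts larger than any member's mean, without a dye effect or a trend with brightness. That run cannot show whether changes of the members' size would be found. Whether the replicates' RNA came from separate extractions is not given in the sources used here.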

Additional observations from a re-analysis of the deposited data

How the results depend on the processing

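Median centring in place of loess changed most: 8 members passed an adjusted p of 0.05 (limma) in place of 0, against 12.6% of all probes. With it 3 members were at least 2-fold higher in place of 0, against 1.96% of all probes. The medians of complexes I, II, IV and V and of the ribosome became 0.48, 0.087, 0.77, 0.72 and 0.41, the ribosome exceeded complex II by 0.32, both SDHD probes turned to 0.070 and 0.10, TC54680 to 0.37, ATP6V1E1 to 0.63 and COX15 to -0.11. In the processed signals and in the authors' value table TC54680 was 0.024 and ATP5F1B -0.015, so both changed sign, as did in the processed signals the first ATP5G1 probe (-0.083), ATP5PF (-0.050) and ATP6V1H (-0.0020), whose means were near 0, the median of complex V was 0.066 in place of 0.13, and that of all members 0.066 in place of 0.11. Without replicate 3 the median of complex V was 0.079. The cause was not tested. Leaving out each array in turn, TC54680 ran from -0.096 to 0.013. Leaving out each array in turn gave 0 to 1 members at least 2-fold lower, the 1 being TC59587 without replicate 1, and 0 members past an adjusted p of 0.05. NDUFA2 ran from 0.16 to 0.57 and MRPS10 from -0.026 to 0.23. Over the same settings the median of complex I ran from 0.013 to 0.21, so that leaving out any of the arrays moved it by more than 1.5 times (0.053 without replicate 3), and that of complex II from -0.49 to -0.31. Taking the channels as unpaired samples, with no replicate block, called 0 members, with a lowest adjusted p of 0.44 (limma). At an unadjusted p under 0.05 (limma) it called 3, and the share of all probes at that threshold is not given. With the correlation within spots (0.62) the lowest adjusted p of a member was 0.061, while 161 of 14868 probes passed. No background correction, the filter on dim probes, flagged spots kept, a trended prior and averaged probes of a gene also called 0 members where they were run. Every limma p of the main fit sets the mean over the pairs of goats, at most 3, against a moderated spread. That spread combines the probe's own spread between pairs with the one estimated over all tested probes. All settings used arrays of 1 slide with 0 dye swaps.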
